A study of Mus musculus with 22 samples.

Results

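Differentiated keratinocytes were examined in the esophageal epithelium of mice with eosinophilic esophagitis (EoE), a form of food allergy of the esophagus. A cell was counted as differentiated when its unique molecular identifiers (UMIs, 1 per captured transcript) from Krt4, Krt13 and Krtdap and from the basal keratins Krt5, Krt14 and Krt15 together numbered at least 10 and the basal keratins gave under 0.1 of them. This rule took 327 of 1500 EoE cells, within a series of 4500 cells, so the members were chosen by their UMIs of these 6 genes.

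The EoE cells came from 4 C57B6 mice with 1 inDrop library each, inDrop being a droplet method that gives each cell its own barcode. Mice 9 and 10 were young, 6 to 8 weeks by the labels, and mice 11 and 12 were old, 19 to 20 months. EoE-like inflammation was induced over 32 days, with the vitamin D analog MC903 and ovalbumin (OVA) on scraped ears for 12 days and oral OVA from day 15 to day 32. The 6 control mice were untreated C57B6 mice with 2 libraries each and carry the numbers 1 to 6 here. Mice 1, 2 and 6 were young at 3 to 4 months, and mice 3, 4 and 5 were old at 18 to 20 months. Ages within a class therefore differed between EoE and control mice, and in particular the young EoE mice were younger than the young controls. No group given MC903 alone was analysed here, so effects of MC903 on the skin and of OVA on the esophagus cannot be told apart. A group of 3 mice of 8 to 10 months with esophageal squamous cell carcinoma (ESCC), given the carcinogen 4NQO in drinking water for 16 weeks and then left 8 weeks without it, served only to see whether a gene was counted there.

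Stratified squamous epithelium renews itself from a basal layer that divides and is anchored to the basement membrane by integrins. Cells that leave this layer stop dividing, exchange Krt5 and Krt14 for Krt4 and Krt13, and add desmosomal proteins that bind them to their neighbors. Nearest the lumen they load small proline-rich proteins under the membrane, cross-link them into a cornified envelope and form a lipid and protease-inhibitor barrier, and basal cell hyperplasia with loss of this late program is the feature for which the epithelium in EoE is known.

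The share of cells that met the rule was 23.4% in mouse 9 (90 of 385), 33.7% in mouse 10 (83 of 246), 16.2% in mouse 11 (79 of 487) and 19.6% in mouse 12 (75 of 382), or 23.2% ± 7.58 (SD, n = 4 mice). Control cells held more UMIs, so each was first thinned at random to a UMI total drawn from all EoE cells, whatever their class. Of 1467 thinned control cells 342 met the rule, with 9.86% in the lowest control mouse and 27.8% in the highest (20.9% ± 7.98, n = 6 mice), and the EoE and control shares overlapped. Without thinning the control share was 31.5%, so its place above or below the EoE share turned with depth. Among cells with at least 10 UMIs on the 6 keratinocyte genes, those meeting the rule were 91.9% to 98.7% in the EoE mice and 35% to 76.8% in the thinned control mice. Both shares are made of the genes of the rule and carry no test. In the cells outside the rule, the basal keratins took a mean of 0.405% of UMIs in EoE and 1.78% in thinned controls. The share among cells with at least 10 UMIs thus also depends on how many cells reach that limit through basal keratins.

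Krt4, the type II keratin of the suprabasal esophagus, led the 3 differentiation genes. It gave 8.77%, 8.94%, 12.1% and 10.4% of the UMIs of the differentiated cells in mice 9, 10, 11 and 12. Its partner Krt13 gave 3.30%, 2.22%, 1.29% and 0.920%, and Krtdap, a small secreted protein of differentiating keratinocytes, gave 0.809%, 0.922%, 0.620% and 0.482%. Both young EoE mice were above both old ones for Krt13 and Krtdap and below them for Krt4. Young and old controls overlapped for all 3 genes, but they were 3 against 3 mice, which part by chance less often than 2 against 2. The other EoE cells held 0.688% to 1.28% Krt4. Of the UMIs of the 3 genes in a differentiated EoE cell, Krt4 made up a median of 84.6%, Krt13 10.6% and Krtdap 3.14%, and 127 of the 327 cells had no Krtdap UMI. Control differentiated cells were less dominated by Krt4, with group means of 6.32% Krt4, 2.55% Krt13 and 1.57% Krtdap against 10.0%, 1.93% and 0.708% in EoE. These values chose the cells and are given as a description. In GRCm38, Krt4 lies at chr15:101918535-101924735 on the minus strand, Krt13 at chr11:100117327-100121566 on the minus strand and Krtdap at chr7:30787896-30791097 on the plus strand.

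**Figure D1:**
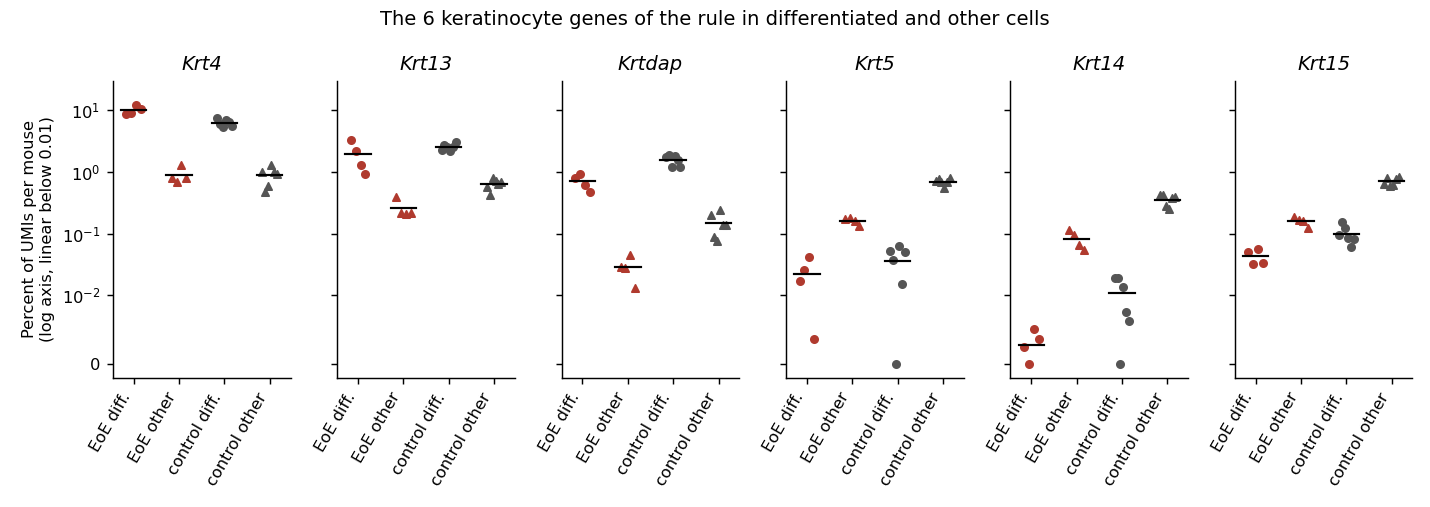
Percent of UMIs per mouse (log axis, linear below 0.01) from the 6 genes of the rule, for differentiated and other cells of 4 EoE and 6 thinned control mice, with 1 point per mouse and a line at the group mean. In EoE, Krt4 stood at 8.77% to 12.1% in differentiated cells, and Krt13 was lower in both old mice than in both young ones.

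The basal keratins were nearly absent from the cells chosen: 271 of 327 had no UMI of Krt5, Krt14 or Krt15, and all 327 together held 87, against 16722 of the differentiation genes. The limit of 10 UMIs cut through a continuum, with 45 cells just inside it at 10 to 12 UMIs and 77 just outside at 7 to 9. Few cells lay near the limit on the basal share, with 16 between 0.05 and 0.1, 10 between 0.1 and 0.2 and 4 at 0.2 or more.

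Depth was tied to the rule, and thinning did not match it within the differentiated cells. Their median UMIs averaged 287 over the EoE mice and 184 over the thinned control mice. The differentiated EoE cells held a median of 284 UMIs (65 to 3178) and the other EoE cells 120, with medians of 281, 345, 201 and 320 in mice 9, 10, 11 and 12 against 138, 186, 91 and 129. In all, 133324 UMIs lay in differentiated EoE cells, 164101 in other EoE cells and 79067 in thinned differentiated control cells, of which control mouse 3 gave only 7 cells and 1593 UMIs. Only 113 differentiated EoE cells met the limits on genes and UMIs per cell that the study's methods state. Of all 1500 EoE cells 144 met them, whereas all 1500 control cells did before thinning. Among EoE libraries 8 of 1492 barcodes recurred, and 4 differentiated cells carried such a barcode. Markers of other cell types were almost absent from the differentiated EoE cells, with 3 UMIs of 18 immune genes (15 at 0, Ptprc among them), none of 12 eosinophil and mast cell genes, 11 of 10 fibroblast genes, 3 of 17 muscle genes, none of 4 erythroid genes and 1 of 7 glandular genes. The 26 endothelial UMIs were all from Pecam1, and the other 7 endothelial genes were at 0.

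The late differentiation program marked these cells off from the other EoE cells in every mouse. Comparisons within EoE use CPM, the UMIs of a gene scaled to the summed UMIs of the cell class in that mouse, and no gene was tested because the rule made the contrast. Of 1357 genes with at least 40 UMIs in EoE cells, 264 (19.5%) were higher in the differentiated cells of 4 of 4 mice and 458 (33.8%) were lower, with a median log2 ratio of -0.28. Against only the 14 other cells with at least 10 UMIs on the 6 genes, 160 of 545 genes were higher and 27 lower.

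Sprr3, a small proline-rich protein of the cornified envelope in the epidermal differentiation complex (chr3:92456502-92458720, minus strand), stood at 4704, 3847, 930 and 773 CPM in the differentiated cells of mice 9, 10, 11 and 12. None of the 1173 other EoE cells held a Sprr3 UMI, which allows up to 0.256% of cells with a UMI at their median depth of 120 UMIs and sets no limit on cells expressing the gene. The level of Sprr3 was at least 167-fold higher in the differentiated cells. Its relative Sprr1a stood at 1657, 2295, 465 and 184 CPM, again with no UMI in other cells, and was at least 76.7-fold higher. Cornifelin, encoded by Cnfn (chr7:25367620-25369724, minus strand), a cornified envelope component, stood at 6825, 6535, 5578 and 3274 CPM against 0, 185, 71.1 and 22.3 CPM. Sprr3 and Sprr1a were higher in both young mice than in both old mice, and the differentiated cells of each mouse were above the other cells of every mouse for all 3 genes.

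Inhibitors of proteases were as sharply divided. Slpi, a secreted inhibitor of neutrophil elastase, stood at 4046, 3759, 1859 and 1104 CPM, from 404 UMIs against 2 in other cells, a ratio of 249 (95% counting interval 68.4 to 2060). Serpinb3a, a clade B serpin of squamous epithelium, stood at 4119, 3847, 1653 and 1986 CPM, a ratio of 177 (60.1 to 861), and Serpinb12 was at a ratio of 116 (39.2 to 564). Serpinb3a has close paralogs in its gene cluster, and reads shared with them could have been assigned to either. The UMIs of these inhibitors lay almost wholly in the differentiated cells of all 4 mice.

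Barrier and host defense genes followed. Elovl4, which elongates very long chain fatty acids for barrier ceramides, stood at 2023, 2645, 1394 and 2023 CPM against 112, 61.7, 71.1 and 0 CPM. The beta-defensin Defb4 stood at 1219, 1749, 310 and 405 CPM and had no UMI in other EoE cells, at least 60.3-fold higher. The retinoic acid binding protein gene Crabp2 was at a ratio of 123 (21.6 to 4910), and Ly6g6c, a surface protein gene of the Ly6 family, had 318 UMIs against 8. Values of these genes in differentiated and other cells did not overlap.

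A listed gene was measured if it had at least 40 UMIs over all EoE cells. Genes such as Sprr3 passed through the differentiated cells alone, so this filter in part fixed the direction. By list, 9 of 10 measured cornified envelope genes (42 listed) were higher in 4 of 4 mice, with a median log2 ratio of 4.07. The same held for 13 of 16 early differentiation genes (27 listed, median 2.63) and 8 of 9 desmosome genes (15 listed, 1.72). It also held for 6 of 6 barrier lipid genes (26 listed, 2.17) and 8 of 9 protease and inhibitor genes (34 listed, 2.49). Over all genes the median was -0.28 and 19.5% were higher. Desmoplakin, encoded by Dsp, which ties desmosomes to keratin filaments, stood at 3144, 3344, 1911 and 1729 CPM against 782, 741, 521 and 559 CPM. Periplakin, encoded by Ppl, a cornified envelope scaffold, stood at 2267, 2885, 1498 and 1692 CPM against 201, 185, 213 and 112 CPM. For both genes the differentiated and other cells did not overlap. Of 2 tight junction genes measured, none was on the same side in all 4 mice.

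**Figure D2:**
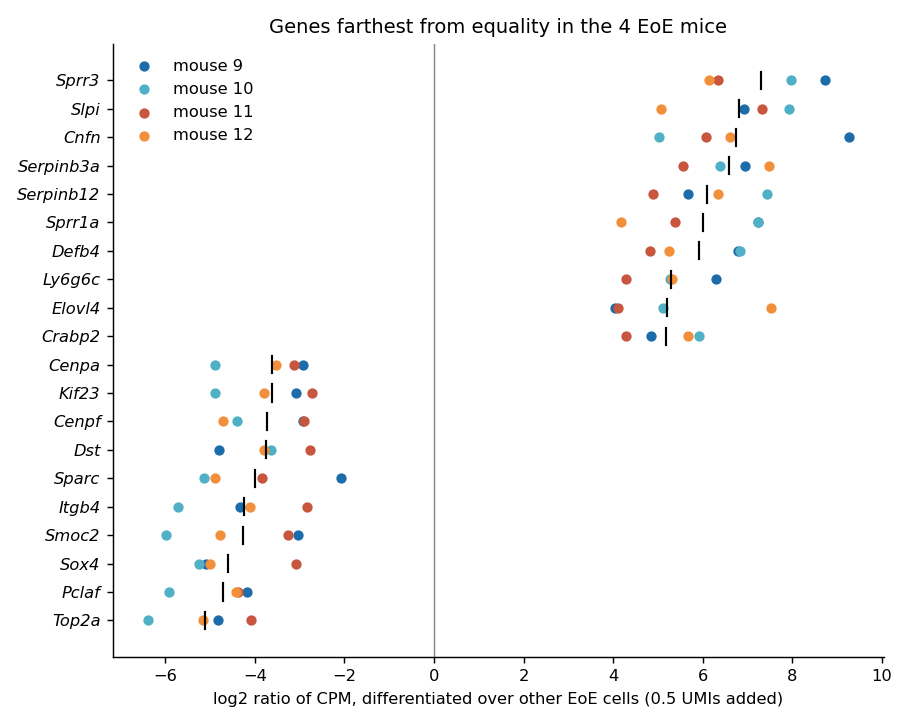
Log2 ratio of CPM in differentiated over other EoE cells of the same mouse for the genes with the largest ratios in each direction, 1 point per mouse and a line at the mean, with 0.5 UMIs added to each sum. By the mean over the 4 mice, Sprr3, Slpi, Cnfn and Serpinb3a lay highest and Top2a lowest.

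Late genes were spread unevenly among the differentiated cells themselves. Sprr3, Cnfn and Slpi together gave 1588 UMIs, 197 cells (60.2%) held none of them, and the 33 cells with most held 84.6%. Of these 33 cells, 11 came from mouse 9, 15 from mouse 10, 5 from mouse 11 and 2 from mouse 12, and they held a median of 1099 UMIs. At least 1 UMI of Sprr3 was found in 51 differentiated cells (15.6%), of Cnfn in 120 (36.7%) and of Slpi in 48 (14.7%), against 0, 7 and 2 of the 1173 other cells, whose median depth was lower. The cornified envelope list took 0.603% of UMIs in differentiated EoE cells under 150 UMIs (46 cells), 0.398% in cells of 150 to 300 (125 cells) and 2.03% in deeper cells (156 cells). In thinned control cells it took 1.88%, 1.43% and 1.58%, but there the depth of a cell was drawn at random. The deepest 5% of each EoE mouse's cells, 78 cells of which 76 were differentiated, held 83.4% of the late UMIs. No doublet caller was run, and the part of doublets or cell size in these deep cells was not tested.

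**Figure D3:**
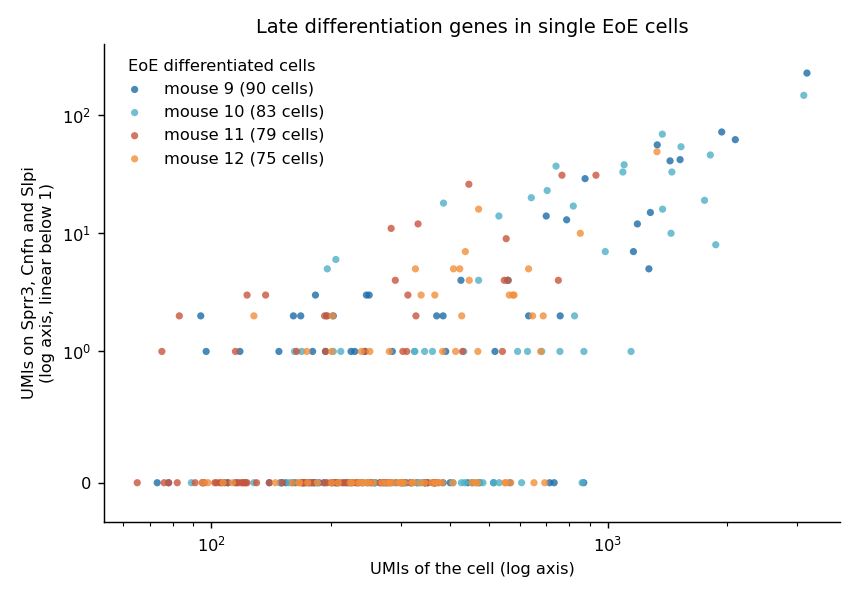
UMIs of Sprr3, Cnfn and Slpi in each differentiated EoE cell (log axis, linear below 1) against all UMIs of the cell (log axis), with 1 point per cell and a color per mouse. 197 of 327 cells lie at 0, and the cells with most of these UMIs have a median of 1099 UMIs.

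Basal and cell division genes were low. Top2a, a topoisomerase of dividing cells, had 0 UMIs in the 327 differentiated cells, which allows up to 0.917% of cells with a UMI but does not limit cells expressing it, against 335, 895, 426 and 648 CPM in the other cells of mice 9, 10, 11 and 12, and was at least 24.6-fold lower. Pclaf, which binds PCNA at replication forks, had 1 UMI against 89, and the proliferation marker Mki67 had 3 against 38. Itgb4, an integrin of the hemidesmosome, stood at 73.1, 21.9, 207 and 73.6 CPM against 1698, 1697, 1658 and 1565 CPM. Dst, a hemidesmosome linker, had 17 UMIs against 301, and the transcription factor gene Sox4 had 1 against 84. These genes were lower in the differentiated cells of 4 of 4 mice, for which, but for Mki67, the naming rule chose them. Also lower in 4 of 4 mice were 8 of 9 measured basal genes (20 listed, median log2 ratio -3.31). The same held for 4 of 4 cell cycle genes (30 listed, -3.68), beside 33.8% of all genes. Genes such as Top2a reached the limit of 40 UMIs through the other cells alone.

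Cdkn1a, which encodes the cell cycle inhibitor p21, was higher in differentiated EoE cells, at 1974, 1727, 1808 and 1361 CPM against 425, 370, 261 and 313 CPM, a mean log2 ratio of 2.30 ± 0.30 (SD, n = 4 mice). At least 1 UMI was found in 37.9% of differentiated cells and 4.35% of other cells. Klf4, a transcription factor of suprabasal differentiation, stood at 9457, 5442, 3615 and 4966 CPM against 2793, 1667, 1682 and 1676 CPM. The alarmin gene Il33 had 50 UMIs, all in differentiated cells, at 536, 481 and 310 CPM in mice 9, 10 and 11 and 0 in mouse 12. Cdkn1a and Klf4 were higher in every mouse, and Il33 in 3 of 4.

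Mt2 and several redox genes were lower in the differentiated cells, while the NRF2 and antioxidant list as a whole was split, with 4 of 15 measured genes higher and 4 lower in 4 of 4 mice (median log2 ratio -0.09). Mt2, a metal-binding protein gene induced by zinc and glucocorticoids, stood at 1536, 1749, 2686 and 1435 CPM in differentiated cells against 6749, 8611, 8576 and 6280 CPM in other EoE cells (log2 ratio -2.05 ± 0.27). Among genes chosen after their values were seen, superoxide dismutase 1, encoded by Sod1, was at a log2 ratio of -2.41 ± 0.54, the carbonyl reductase gene Cbr2 at -2.94 ± 0.54 and Gclm, a subunit gene of glutathione synthesis, at -2.26 ± 0.14. Of 7 measured glucocorticoid receptor targets 6 were lower in 4 of 4 mice (median -1.27), among them Glul (glutamine synthetase) at -2.96 and Klf9 at -3.03. Atp1b3, a subunit gene of the sodium pump, was at -0.41 ± 0.14. Of 27 ribosomal protein genes 19 were lower and none higher (median -0.74). Counts of these lists are to be read beside all genes, of which 33.8% were lower and 19.5% higher in 4 of 4 mice (median -0.28).

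The question whether EoE moved a gene differently in differentiated cells than in the other cells was tested as an interaction of condition and cell class, with UMIs summed per mouse and class. Of 847 genes 4 were called (0.472%) by edgeR's quasi-likelihood test with Benjamini-Hochberg adjustment at 0.05, all 4 toward higher in differentiated cells: Sprr3, Serpinb3a, Cnfn and Fth1. The median difference over all genes was 0.05 on the log2 scale, and it moved to -0.10 with DESeq2 and to 0.48 with the rule genes left out of library sizes, where 28 genes were called. CPM in this and the next comparison were scaled by edgeR's trimmed mean of M values (TMM).

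Sprr3 had a log2 difference of effects of 4.72 (SE 1.00, adjusted p = 0.0021). Its level in differentiated cells was 4715, 4096, 913 and 770 CPM in EoE mice 9, 10, 11 and 12 and 0 to 5851 CPM (median 3677) in the 6 controls, and the groups overlapped. In the other cells it was at 0 in all 4 EoE mice and 0 to 306 CPM (median 159) in controls. The call thus rests on 0 UMIs in the other EoE cells and 31 in the other control cells, since in differentiated cells the EoE mean (2623 CPM) was not above the control mean (3284 CPM). Control mouse 2 alone among controls was also at 0 in the other cells, and with an EoE group at 0 the fitted value depends on the prior count and is no bound. Cnfn, with a log2 difference of 2.04 (SE 0.54, adjusted p = 0.0347), was at 5634 ± 1717 CPM (n = 4) in EoE and 3445 ± 1850 CPM (n = 6) in control differentiated cells, and at 73.3 ± 85.6 and 163 ± 166 CPM in the other cells. Serpinb3a, with 3.19 (SE 0.73, adjusted p = 0.0057), was at 2957 ± 1342 and 1483 ± 894 CPM in differentiated and at 0 to 32.2 and 0 to 212 CPM in other cells. The EoE and control ranges of Cnfn and Serpinb3a overlapped in both classes.

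Fth1, the heavy chain gene of the iron store ferritin (chr19:9980598-9985098, plus strand), had a log2 difference of 1.30 (SE 0.34, adjusted p = 0.0347). It stood at 585 ± 219 CPM in EoE and 695 ± 546 CPM in control differentiated cells, and at 690 ± 91.9 CPM in EoE and 2420 ± 546 CPM in control other cells. Its lower level in EoE was in the other cells, whose EoE values (571 to 789 CPM) were all below the control values (1883 to 3105 CPM).

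**Figure D4:**
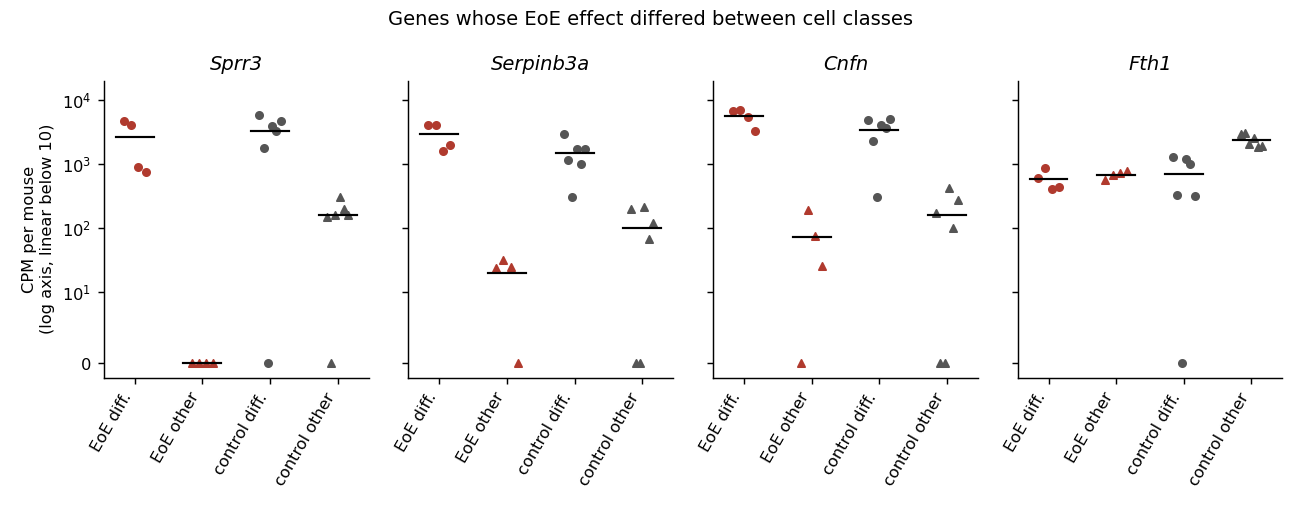
CPM after TMM scaling of Sprr3, Serpinb3a, Cnfn and Fth1 in differentiated and other cells of 4 EoE and 6 control mice, 1 point per mouse. Lines mark group means and the axis is linear below 10. EoE and control points overlap in differentiated cells for all 4 genes, and for Fth1 they separate in the other cells.

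The other cells did not have the same makeup in both conditions, since 14 of the other EoE cells but 140 of the other control cells held at least 10 UMIs on the 6 genes of the rule, and the part of this in the 4 calls was not tested. With other cells limited to those, none of the 4 genes passed among 227 tested (adjusted p from edgeR 0.092 for Fth1, 0.31 for Serpinb3a, 0.58 for Cnfn and 0.60 for Sprr3). In their place 2 other genes were called, the cytoskeletal actin gene Actb and Glyr1, which are named after their values were seen. Without EoE mouse 9 no gene was called, and DESeq2 called 0 (62 genes at an unadjusted p under 0.05, against 82 for edgeR).

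Next, differentiated cells of EoE and control mice were compared directly. In 332 genes tested by edgeR, 139 (41.9%) were higher and 102 (30.7%) lower in EoE, and 166 (50.0%) did not overlap between the 4 EoE and 6 control mice. The median log2 fold change was 0.30, or 0.43 with DESeq2 and 0.10 without mitochondrial genes, and the change of each gene is to be read against this shift. These differences were not particular to differentiated cells: of the 139 higher genes 128 were also higher, and of the 102 lower genes 102 were also lower, in the other EoE cells against the other control cells. Of the lower genes 17 had at most 20 UMIs in all EoE cells, and 5 of the higher had at most 20 in all control cells. These cells held 297425 UMIs in EoE and 1750800 in unthinned controls, so the 17 and the 5 cannot be compared. No library held both conditions, so condition and library preparation cannot be told apart.

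Most of the largest differences were in genes of translation and respiration or their copies. Rps27rt, a retrotransposed copy of a small ribosomal subunit gene (chr9:114982366-114982739, minus strand), stood at 7802, 6598, 8009 and 7629 CPM in EoE mice 9, 10, 11 and 12 and had no UMI in the thinned differentiated control cells, at least 171-fold higher. It had 1 of 1750800 UMIs in all control cells before thinning and 2896 of 5186964 in ESCC cells. The ribosomal copies Rpl17-ps8 and Rpl37rt were at least 73.7-fold and 40.7-fold higher. Rplp1, of the ribosomal stalk, went the other way, at 113, 294, 435 and 136 CPM against 8108 to 15025 CPM (median 11744) in controls, a log2 fold change of -5.64 (SE 0.38, adjusted p = 6.65e-16). In all cells of the condition, before thinning, it had 75 of 297425 UMIs in EoE and 29167 of 1750800 in controls.

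Rps19 (-5.54), Rpl30 (-5.34), Rplp0 (-5.17) and Rps7 (-4.33) fell likewise on the log2 scale. Of 20 ribosomal protein genes tested 14 fell and 3 rose (median -2.32), beside 30.7% and 41.9% of all genes. Ribosomal copies and their parent genes share sequence, so reads may have been assigned to either, and these values are uncertain gene by gene. The parents Rps27, Rpl37 and Rpl17 were low in controls too, at 20, 129 and 25 of 1750800 UMIs in all control cells. They had 1, 2 and 14 UMIs in differentiated EoE cells and 4, 2 and 44 in other EoE cells. In ESCC cells they had 15891, 5547 and 16433 of 5186964. Some gene names in the deposited counts, such as COX1 for a mitochondrial gene, are not in the form of the annotation that the authors name, and it could not be checked that EoE and control reads were assigned with the same annotation. Whether the differences in ribosomal genes and their copies lie in the transcripts or in this assignment was not tested. Ribosomal protein genes took 1.78% of the UMIs of differentiated EoE cells and 5.28% in controls, and their copies took 1.09% and 0.003%.

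Ndufa4l2, which encodes a relative of a cytochrome c oxidase subunit (chr10:127514967-127517154, plus strand), had 0 UMIs in all EoE cells and 358 to 1431 CPM in control differentiated cells, at least 38.2-fold lower. On the log2 scale, the respiratory chain genes Atp5g3 (-5.92), Ndufa4 (-4.82) and Cox6a1 (-4.52) also fell. So did Taldo1 (-4.18), of the pentose phosphate pathway, the carbonyl reductase gene Cbr3 (-4.12) and the tubulin gene Tuba4a (-4.45). The 7 genes tested of the mitochondrial genome did not move one way, with 3 higher and 3 lower, beside 41.9% and 30.7% of all genes. The 13 mitochondrial genes listed took 4.70% ± 1.88 of UMIs in EoE and 4.26% ± 1.37 in controls.

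Other genes with large rises were Thg1l, which adds a guanylate to histidine tRNA (at least 71.6-fold higher), and Ddhd1, a phospholipase (at least 51.8-fold). Each had no UMI in thinned differentiated control cells and was counted in all 4 EoE mice. Btf3, Pan2, Glrx3 and Pola2 each had 1 UMI in control differentiated cells against 255, 216, 150 and 118 in EoE. Values of all 6 genes were higher in every EoE mouse than in every control mouse, which was a condition for naming them.

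Mt2, lower in differentiated than in other EoE cells, was nonetheless far above control, at 1775, 1808, 3228 and 1771 CPM against 0 to 174 CPM (median 0), a ratio of 46.3 (95% counting interval 15.6 to 226). Its neighbor Mt1 changed in the opposite direction, at 648, 452, 931 and 772 CPM against 1179 to 2436 CPM (log2 fold change -1.32, SE 0.29, adjusted p = 0.00011). Mt2 and Mt1 values did not overlap between groups, which for Mt2 was a condition for naming it among the largest changes.

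Among differentiation genes, most early members fell and Klf4 rose. Of 16 early differentiation genes tested 10 fell and 2 rose, beside 30.7% and 41.9% of all genes. Their median log2 fold change was -0.95 beside 0.30 over all genes. The list took 2.42% ± 0.80 of UMIs in EoE (n = 4) and 3.81% ± 0.29 in controls (n = 6). Ly6d, a surface protein gene of keratinocytes, stood at 761, 746, 621 and 500 CPM against 4266 to 7512 CPM (-2.99, SE 0.29, adjusted p = 1.5e-11). The glutathione transferase gene Gsta4 fell by 1.83, suprabasin (Sbsn) by 2.48, the fatty acid binding protein gene Fabp5 by 1.37, the serpin gene Serpinb5 by 1.42 and Atp1b3 by 0.90. Klf4 stood at 10929, 5627, 4346 and 6130 CPM against 537 to 2911 CPM, a rise of 1.82 (SE 0.30, adjusted p = 1.2e-06), and its groups did not overlap.

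Of 7 cornified envelope genes tested, 3 rose and 2 fell (median -0.20), shares near those of all genes (41.9% and 30.7%), and the list took 1.48% ± 0.65 and 1.29% ± 0.60 of UMIs. Ppl rose by 0.93 and Cnfn by 0.85, and the envelope genes Crct1 and Cysrt1 fell by 1.17 and 1.09 on the log2 scale. Cnfn with an adjusted p of 0.0065, Serpinb3a (1.10) and Slpi (1.15) were called higher, but without the 5% of cells with most UMIs they turned to -0.051, -0.17 and -0.84. Of 6 desmosome genes tested 2 fell, Pkp1 by 1.13 and Dsc2 by 0.92, a share near the 30.7% of all genes, and none rose (median -0.43).

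Of 26 barrier lipid genes listed only 4 could be tested, of which 3 rose (median 1.39), beside 41.9% of all genes and their median of 0.30. Elovl4 rose by 1.41, Elovl7, another fatty acid elongase gene, by 1.37 and the ceramide desaturase gene Degs1 by 1.50, while Fabp5, also on this list, fell. Elovl4 stood at 2338, 2734, 1676 and 2498 CPM against 477 to 1085 CPM, and these ranges did not overlap.

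Of 18 alarmin and host defense genes listed 4 were tested and 3 rose (median 0.99), again beside 41.9% of all genes. S100a16, a calcium-binding protein gene of epithelia, stood at 7521, 5966, 8568 and 6312 CPM against 2504 to 3678 CPM (1.15, SE 0.25, adjusted p = 8.9e-05). Its relative S100a14 rose by 0.83 and Defb4 by 1.23, whereas S100a6 fell by 1.10. The S100a16 groups were apart, and those of Defb4 (373 to 1808 CPM against 0 to 943 CPM) overlapped.

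Of 11 immediate early genes tested 3 rose and 3 fell (median -0.41), neither share above that of all genes (41.9% and 30.7%). The phosphatase gene Dusp1 stood at 169, 136, 0 and 45.4 CPM against 954 to 2099 CPM (-3.61, SE 0.41, adjusted p = 4.7e-10) and the AP-1 gene Junb fell by 2.07, whereas Ier2 rose by 2.17 and Zfp36l1, which destabilizes mRNA, by 1.47. The heat shock genes Hspa1b and Dnajb1 rose by 1.07 and 0.74, 2 of 4 tested (median 0.50).

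Of 11 NRF2 and antioxidant genes 5 fell and 2 rose (median -0.46), with falls of 1.51 for Gstm1 and 2.57 for Gpx2, and the list took 1.39% ± 0.065 and 2.36% ± 0.39 of UMIs. The annexin genes Anxa1 and Anxa2, of membrane repair, fell by 1.81 and 1.62, 2 of 3 tested. Of 4 glucocorticoid receptor targets 2 fell and 1 rose (median -0.32). Of 7 protease and inhibitor genes 2 rose and 1 fell (median 0.36). Counts of so few genes are to be read beside the 41.9% of all tested genes that were higher and the 30.7% that were lower. Cdkn1a did not pass the test, at 2282, 1785, 2173 and 1680 CPM against 870 to 2028 CPM (log2 fold change 0.46, SE 0.26, adjusted p = 0.10). No cell cycle, tight junction or type 2 cytokine response gene had enough UMIs to be tested, and the 1 basal gene tested did not pass.

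**Figure D5:**
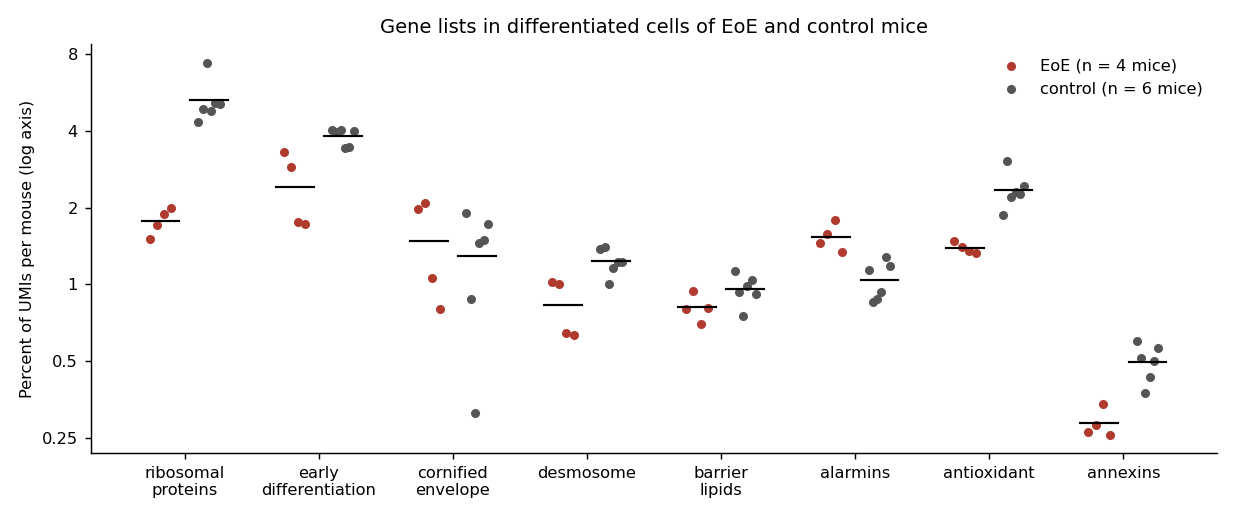
Percent of UMIs per mouse (log axis) from each gene list in differentiated cells of 4 EoE and 6 thinned control mice, 1 point per mouse and a line at the group mean. Early differentiation lies at 1.73% to 3.30% in EoE and 3.43% to 4.02% in controls, and alarmins at 1.35% to 1.79% and 0.856% to 1.28%.

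Old and young EoE mice, 2 of each, did not overlap in 13 of 20 lists of keratinocyte, ribosomal and mitochondrial genes. Of these, 8 were higher in the young and 5 in the old. Young and old controls, 3 of each, did not overlap in 2 of 20. Groups of 2 part by chance more often than groups of 3, so these counts cannot be compared. Cornified envelope genes took 1.98% and 2.09% of UMIs in the differentiated cells of young mice 9 and 10 and 1.06% and 0.798% in old mice 11 and 12. Early differentiation genes took 3.30% and 2.88% against 1.76% and 1.73%, and protease and inhibitor genes 1.88% and 1.82% against 0.852% and 0.706%. The mitochondrial genes, whose share can follow RNA quality, took 2.88% to 3.69% in the young and 5.05% to 7.18% in the old, and ribosomal protein and immediate early genes were also higher in the old; their part in the other differences was not tested. In controls the young and old mice overlapped for the first 3 lists, at 0.876% to 1.91% and 0.314% to 1.49% for the cornified envelope. Comparing 2 with 2 mice cannot give an exact two-sided p under 0.333, and the cells richest in late UMIs came mostly from the young mice. For single genes, the difference of the EoE effect between ages was called for 0 of 553 genes (0.0%) by edgeR's quasi-likelihood test, with 27 at an unadjusted p under 0.05, and for 0 by DESeq2, with 12.

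Fewer genes were counted in a differentiated EoE cell than in a control cell at the same number of UMIs. Thinned to 100 UMIs, the cells held a mean of 82.9, 81.5, 78.8 and 80.7 genes in EoE mice 9, 10, 11 and 12 and 83.4 to 87.7 in controls, with no overlap. The means were 81.0 ± 1.68 (SD, n = 4) and 85.6 ± 1.41 (n = 6), a difference of -4.65 genes (two-sided exact permutation test, p = 0.00952, the smallest this design allows). These UMIs included the 6 genes that chose the cells, of which Krt4, Krt13 and Krtdap took 12.7% in EoE and 10.4% in controls. That test therefore draws in part on the rule. Without the 6 genes, at 75 UMIs, the means were 67.7 ± 1.38 (n = 4) and 70.0 ± 0.53 (n = 6). The difference was then -2.30 genes (two-sided exact permutation test, p = 0.00952).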

How the data were processed

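Esophageal epithelium was peeled from muscle, dissociated and run on inDrop. For the deposited UMI counts (whole numbers per gene and cell, not normalized), the authors extracted barcodes with UMI-tools 1.0.0, aligned reads with STAR 2.7.3 and assigned them with featureCounts, per the submitters' processing notes, and drew 1500 cells per condition. Intervals and limits from counts cover counting error only, at 95% and 3 UMIs.

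Here, control cells were thinned once at random (9 further draws as alternatives) to UMI totals of EoE cells, the rule was applied, and both libraries of a control mouse were summed. Sums per mouse were tested in R 4.3.3 with edgeR 4.0.16 (filterByExpr, TMM, quasi-likelihood, Benjamini-Hochberg, threshold 0.05), with DESeq2 1.42.0 as an alternative; the interaction test had mouse as a block. The 6 genes of the rule were not tested, and sex-linked genes were not named. Each step was tested on simulated data. Genes per cell were compared by exact permutation. The members and lists were chosen with earlier results of these data known. Genes named were the 12 of largest fold change in each direction without overlap, the interaction calls, the 10 of largest ratio in each direction within EoE, up to 4 members of each list, and Cdkn1a, Top2a, Atp1b3 and Mki67; Il33, Klf4, Dsp, Sod1, Cbr2, Gclm, Glul and Klf9, where outside these, were added after their values were seen. Some genes that this rule names are not reported here. Gene positions are from GENCODE M21 (GRCm38).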

Additional observations from a re-analysis of the deposited data

Results flagged for a closer look

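In differentiated cells, 20 of 144 groups of 4 or 6 mice held a value far from the rest by Dixon's criterion. Chance gives about 1 in 20 for normally distributed values only. A group with 1 nonzero value is always flagged, as for Btf3, Pan2, Glrx3 and Pola2 in controls and Atp5g3 and Ndufa4 in EoE. The count of flagged groups therefore cannot be set against that rate. Among EoE mice, mouse 11 had the highest share of glucocorticoid target UMIs (0.480%) and the highest Mt2 (3228 CPM), Atp5g3 (62.1 CPM) and Cysrt1 (683 CPM). Mouse 9 had the highest Ndufa4 (28.2 CPM) and mouse 10 the highest Cbr3 (67.8 CPM). In all differentiated EoE cells Atp5g3 and Ndufa4 had 1 UMI each and Cbr3 had 3.

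Among control mice, mouse 3, with 7 differentiated cells, had the highest ribosomal protein share (7.41%) and the highest Rplp0 (5723 CPM), Serpinb5 (2385 CPM) and Atp1b3 (3815 CPM). Mouse 2 was highest for Btf3 (179 CPM) and Cbr3 (1073 CPM) and lowest for Rps19 (894 CPM) and Ppl (358 CPM). Mouse 6 was highest for Mt2 (174 CPM), Pan2 (58.0 CPM) and Glrx3 (58.0 CPM), mouse 4 for Pola2 (43.6 CPM) and mouse 5 for Dusp1 (2099 CPM), and mouse 1 was lowest for Rpl30 (802 CPM). Of these, Btf3, Pan2, Glrx3 and Pola2 rest on 1 UMI in the control group.

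The effect of EoE differed between differentiated and other cells, by the interaction test, for Sprr3 (4.72 on the log2 scale), Serpinb3a (3.19), Fth1 (1.30) and Cnfn (2.04). Over 28 alternatives the 4 values kept their sign, ranging from 3.88 to 7.23 for Sprr3, 2.28 to 5.56 for Serpinb3a, 0.55 to 3.29 for Fth1 and 1.46 to 4.30 for Cnfn, and passed the threshold in 25, 23, 17 and 19 of them. None passed with other cells of at least 10 UMIs on the 6 genes. For Sprr3 the value rests on 0 UMIs in the other EoE cells, and its level in differentiated cells was not higher in EoE than in control.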

How the results depend on the processing

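The 241 genes called between EoE and control differentiated cells became 550 with full counts of the control cells chosen, 653 without thinning, 700 without the filter on low counts, 387 with cells within the stated limits, 154 with at least 20 UMIs on the 6 genes and 137 without the 5% of cells with most UMIs, which also turned Cnfn to -0.051, Serpinb3a to -0.17 and Slpi to -0.84. DESeq2 called 236, other draws 172 to 235, and leaving out 1 mouse 197 to 285.

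The 4 genes called between cell classes became 13, 45, 20, 22, 7, 39, 37 and 13 in 8 other draws (6 to 45 over 9), 20 with full counts, 16 without thinning, 0 with DESeq2, 2 with relative log expression factors, 28 with the rule genes out of library sizes and 2 with other cells of at least 10 UMIs, where none of the 4 was called. Leaving out 1 mouse gave 0 (EoE mouse 9) to 21 (control mouse 2), so this count rests on the draw and on mouse 9. The median difference moved between -0.02 and 0.45 over the draws.

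The age difference, 0 genes, became 1, 1, 1, 2, 3 and 5 in 6 other draws and 2 without thinning, and 0 to 4 on leaving out 1 mouse (4 without control mouse 3). The share of cells meeting the rule, 2.32 percentage points above control, became -8.30 without thinning and 48.6 within the stated limits, and -1.18 to 4.66 on leaving out 1 mouse. The 722 of 1357 genes on the same side in all EoE mice became 164 of 376 within the stated limits. Against other cells of at least 10 UMIs they became 187 of 545. The lower genes among them went from 458 to 28 and 27, and the higher genes from 264 to 136 and 160. With 1 mouse left out, 607 to 694 genes were on the same side in 3 mice. The cause of these changes was not tested. Genes per cell moved from -5.27 to -3.94 on leaving out 1 mouse. Of 1850 gene values 1751 kept direction and side of the threshold, 86 lost and 10 gained a call, and 3 reversed. No paired analysis was possible because EoE and control cells came from different mice and no label matches them mouse by mouse.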
